A study of Mus musculus with 10 samples.

Results

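Lung DNA methylation of mice given DSE, an extract of Descurainia sophia seeds, was set against that of saline mice to list the genes that lay away from the control level after treatment. The members were chosen by their labels alone and are 7 of the 10 mice of the series: 3 named Saline and 4 named Herb in the labels. The label Herb was read as DSE because the study gave no other herb. All mice were female BALB/c mice bought at 8 weeks of age. The saline mice received injections of saline only. The DSE mice were sensitized to ovalbumin (OVA) with alum by intraperitoneal injection, challenged with OVA through the nose, and given DSE by mouth. The 3 remaining mice, labelled OVA, were sensitized and challenged in the same way without DSE, and their values are given beside those of the DSE mice. No mice received DSE without OVA, so in DSE vs. saline the OVA model and the extract cannot be told apart. OVA challenge models acute allergic inflammation of the airways and not the long course of human asthma. The comparisons DSE vs. saline, DSE vs. OVA and OVA vs. saline share mice, so their values are placed side by side and were not tested against each other.

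DNA methylation is the addition of a methyl group to cytosine, in mammals mostly at CG dinucleotides (CpGs). Promoters rich in CpGs, the CpG islands, are usually unmethylated, whereas CpG-poor promoters and gene bodies are often methylated in a way that depends on the cell type. Blood cells keep the promoters of leukocyte genes unmethylated, and structural cells of the lung, such as epithelium, endothelium, fibroblasts and smooth muscle, keep those of their own genes unmethylated. Whole lung holds all of these cells, and in such tissue a change in the shares of cell types and a change within cells cannot be told apart.

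Methylation was measured by capture of selected regions, bisulfite conversion and sequencing, and the deposited table holds the methylated and unmethylated CpG calls of each mouse in windows of 1000 bp placed every 500 bp. A level is the percentage of calls that were methylated, and a difference in percentage points is the mean of the 4 DSE mice minus the mean of the 3 saline mice. The promoter was taken as the region within 1000 bp of the RefSeq start site on GRCm38 and the gene body as the rest of the transcript, and the calls of the windows that lie in each were summed per mouse. With at least 20 calls in each of the 7 mice, 22578 promoters and 21834 gene bodies of 38801 RefSeq genes could be tested. Of these genes 25666 had a curated transcript, and the others were placed by their gene record. The 7 libraries held 306656737 to 410836272 calls over all windows, and the median promoter held 2419.5 to 3250 calls per mouse. The median window held 343 to 416 calls in the saline and 396 to 504 in the DSE mice. A gene was called when limma on M-values, in which methylated calls are divided by unmethylated ones after adding 1 to both and the log2 is taken, gave a Benjamini-Hochberg adjusted p below 0.05 over all promoters or all gene bodies. Intervals are limma's 95% intervals of the difference in points. Windows have unequal levels and depths, so a change in where a library's calls fall also moves a sum over windows. The test was therefore repeated with each window weighted equally, and calls lost in this way are given beside the values of the genes described.

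In the DSE mice 3378 promoters were higher than in saline (15.0% of those tested) and 464 were lower (2.06%). At a difference of at least 10 points these were 402 (1.78%) and 252 (1.12%). Of all promoters tested, 30.5% had DSE and saline mice that did not overlap. Gene bodies were higher in 3518 genes (16.1%) and lower in 1236 (5.66%), with 483 (2.21%) and 302 (1.38%) past 10 points, and 35.5% of the gene bodies had mice that did not overlap. In all, 74.7% of promoters were measured higher in the DSE mice, called or not. The median promoter was 0.611 points higher in the DSE mice (0.20 on the M scale) and the median gene body 1.34 points higher (0.12 on the M scale). The mean over promoters was 20.6% to 21.0% in the saline mice and 21.6% to 22.3% in the DSE mice, which did not overlap (difference 1.16, two-sided p = 0.0571 by an exact permutation test, which cannot give less with groups of 3 and 4). The OVA mice lay between 20.7% and 21.5%. Centring each mouse on its own mean M-value sets this shift to about 0, and with it 972 promoters were called higher and 878 lower. The share of calls that were higher was then 52.5%, against 87.9% without centring, and in gene bodies 47.7% against 74.0%, a balance that centring itself largely fixes. With each window weighted equally, 2006 of the 3378 higher and 370 of the 464 lower promoters kept their call, against 1433 of 3518 and 656 of 1236 gene bodies. For comparison, the same fit called 9.90% of promoters and 4.09% of gene bodies in DSE vs. OVA, and 2.11% of promoters and 7.09% of gene bodies in OVA vs. saline.

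Most promoters of genes that every leukocyte uses were lower in the DSE mice than in saline. Of the 15 pan-leukocyte promoters tested, 12 were lower and 0 higher, against 2.06% lower among all promoters, and 9 of the 12 fell by at least 10 points. Their median difference was -11.1 points, beside 0.611 for all promoters, and all 12 kept their call when each mouse was centred. Averaged over the list, the saline mice lay at 44.8% to 46.9%, the OVA mice at 34.4% to 38.7% and the DSE mice at 34.6% to 37.7%. The proximal promoters of 3 of the genes with the lowest values are shown because their few CpGs, in capitals, lie in CpG-poor sequence (27025 RefSeq promoters had a median of 6 CpGs over the same stretch, and these had 4, 4 and 2). Each runs 5′ to 3′ over the 250 bases before the RefSeq start site on the minus strand of GRCm38.p6, at chr1:138175306-138175555 for Ptprc, chr11:34783906-34784155 for Dock2 and chr16:92826075-92826324 for Runx1.
Ptprc: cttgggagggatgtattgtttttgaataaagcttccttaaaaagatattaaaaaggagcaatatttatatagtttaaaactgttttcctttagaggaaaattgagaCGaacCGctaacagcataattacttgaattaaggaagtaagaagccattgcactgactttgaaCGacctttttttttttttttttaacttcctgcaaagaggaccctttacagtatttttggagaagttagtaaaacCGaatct
Dock2: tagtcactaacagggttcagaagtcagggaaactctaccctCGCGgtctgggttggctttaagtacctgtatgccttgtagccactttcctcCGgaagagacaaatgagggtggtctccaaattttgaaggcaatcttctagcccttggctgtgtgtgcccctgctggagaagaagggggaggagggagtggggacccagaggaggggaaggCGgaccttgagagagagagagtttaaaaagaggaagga
Runx1: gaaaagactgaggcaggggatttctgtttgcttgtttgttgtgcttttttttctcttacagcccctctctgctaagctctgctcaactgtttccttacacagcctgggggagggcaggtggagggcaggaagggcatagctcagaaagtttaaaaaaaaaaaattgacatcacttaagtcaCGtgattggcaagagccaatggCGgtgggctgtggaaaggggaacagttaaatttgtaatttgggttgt

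Ptprc encodes CD45, the tyrosine phosphatase found on nucleated blood cells. Its promoter was methylated at 65.8%, 59.1% and 65.0% in the saline mice, 48.5%, 45.1% and 46.1% in the OVA mice, and 47.8%, 42.9%, 47.6% and 42.9% in the DSE mice. All DSE mice lay below all saline mice, and the DSE and OVA mice overlapped. The difference from saline was -18.0 points (95% interval -23.3 to -12.7, limma adjusted p = 0.00373, and at most 0.0148 with any 1 mouse left out). Dock2, an activator of Rac in leukocyte migration, stood at 61.8%, 64.4% and 61.8% in saline against 49.9%, 40.0%, 45.1% and 42.6% in the DSE mice (difference -18.3, limma adjusted p = 0.00389). The OVA mice had 46.0%, 41.4% and 41.9% at the Dock2 promoter, within the range of the DSE mice. Runx1, a transcription factor needed to form blood stem cells, is no member of this list, and its promoter fell from 58.7%, 61.2% and 52.9% to 41.7%, 35.9%, 42.7% and 37.7% (difference -18.1, limma adjusted p = 0.00435).

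The remaining pan-leukocyte promoters that fell were those of the surface proteins Cd53, Cd48, Cd37 and Spn, the beta-2 integrin chains Itgb2 and Itgal, the lysosomal protein Laptm5, and the signalling and actin regulators Vav1, Rac2 and Was. Their differences ran from -8.98 points at Spn, the sialoglycoprotein CD43, to -13.7 at Cd53, a tetraspanin. With the promoter placed at the start of the gene record instead of the RefSeq transcript, the difference at Spn was 4.06 and was not called. The calls of Cd37 and Cd48 were lost with each window weighted equally, at differences of -9.60 and -11.1. With any 1 mouse left out, 9 to 12 of the 15 promoters were called lower. The promoters of Arhgdib, Coro1a and Lcp1 did not pass the test. Coro1a, a coronin of leukocyte actin, and Lcp1, the actin bundler L-plastin, already lay at 3.67% or less in every saline mouse.

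**Figure D1:**
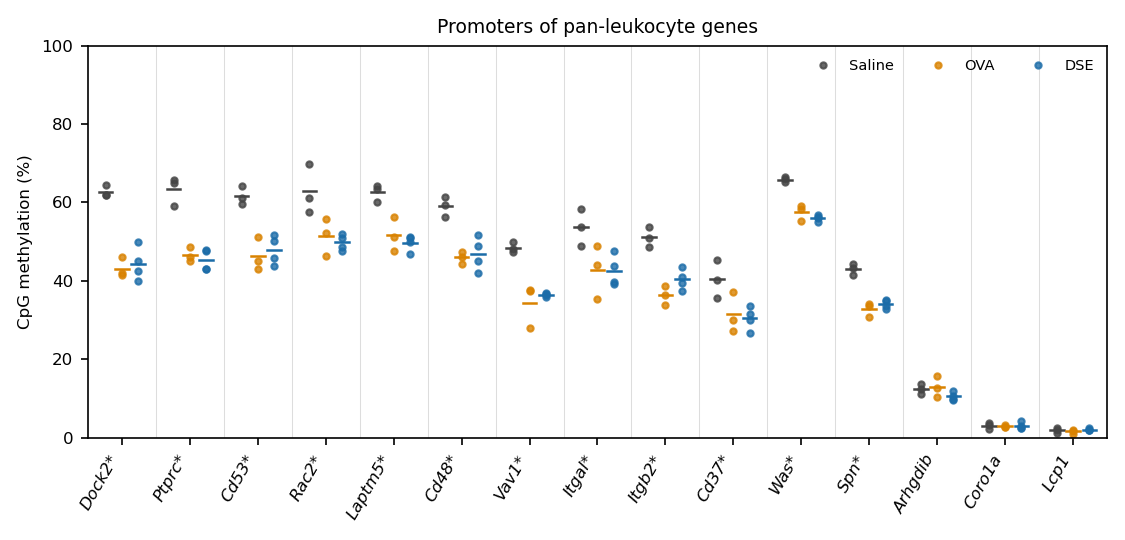
CpG methylation (%) of the promoters of 15 pan-leukocyte genes in each mouse, with a bar at each group's mean and an asterisk at genes called in DSE vs. saline. At the 12 called genes every DSE mouse lies below every saline mouse, while Arhgdib, Coro1a and Lcp1 start from low levels.

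Promoters with the largest falls outside that list also included blood cell genes. Acap1, a GTPase-activating protein for Arf6, fell from 70.9%, 73.7% and 78.6% to 49.3%, 43.8%, 57.5% and 53.3% (difference -23.4, 95% interval -30.8 to -16.1, limma adjusted p = 0.00392), with OVA mice at 67.3%, 54.6% and 54.3%. Lcp2, the adaptor SLP-76 of T cell receptor signalling, fell by 18.4 points, and its saline mice lay within 62.2% to 62.9%. The gene of Mir142, a microRNA of blood cells named here after its values were seen, had 68.9%, 72.6% and 64.0% in saline and 45.8% to 48.6% in the DSE mice (difference -21.8, limma adjusted p = 0.00293). Evi2b, Fermt3, Arhgap15 and Arhgap45, all expressed in blood cells, were among the 15 promoters at which at least 4 windows were called lower. The Evi2b promoter was at 55.1% to 58.3% in saline, 35.6% to 45.4% in OVA and 38.4% to 42.7% in DSE mice. Pglyrp2, Taar4, Fbxo24, Tnfrsf26 and AI662270 completed the largest falls together with segments of antigen receptor loci, with differences of -18.1 to -21.8 points. The Igh and Ighv1-86 promoters rest on 1 and the same window. V segments such as Ighv1-86 and Trav13-3 belong to families of similar sequences, so their reads are uncertain.

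Other immune lists held fewer tested promoters, and their counts stand beside 2.06% lower and 15.0% higher among all promoters. Among eosinophil genes and eotaxins 1 of 8 was lower, Ccr3, the receptor for eotaxins, at -12.0 points (95% interval -19.0 to -4.91), on 56 to 182 calls per mouse. The share of calls falling there was 2.36 times as large in the DSE as in the saline libraries, and its part in the difference was not tested. The list's median was -6.10 points, and with centring 4 of 8 were lower, beside 878 of all 22578 promoters. In the T cell receptor list 2 of 5 were lower, Lcp2 and the co-receptor Cd4, the latter from 95.9% to 97.9% in saline to 88.1% to 93.3% in the DSE mice. Btk, the B cell tyrosine kinase, fell by 8.31 points (1 of 6 B cell promoters), and Cebpe, a transcription factor of granulocyte maturation, fell by 9.09 (1 of 3 neutrophil promoters). The calls of Ccr3, Cd4 and Btk were lost when some single mice were left out (largest limma adjusted p = 0.0959, 0.0831 and 0.101). Among macrophage promoters that of Arg1, an arginase of alternatively activated macrophages, was higher by 9.97 points and lost its call with centring and with equal weights. Gata2, a factor of mast cell and blood progenitors, was the 1 of 4 mast cell promoters called, at 2.00 points higher, and lost its call with centring.

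Th2 cytokine and receptor promoters mostly did not pass the test. Of the 12 tested, 1 was lower, that of Csf2, the growth factor GM-CSF, at 41.3%, 41.1% and 40.0% in saline and 31.5%, 32.8%, 30.8% and 32.1% in the DSE mice (difference -9.02, 95% interval -12.4 to -5.60, limma adjusted p = 0.00705). The OVA mice had 29.6%, 32.5% and 31.6%, so that both OVA-exposed groups lay below saline. The Il4 promoter differed by 0.583 points (limma adjusted p = 0.878) and that of Il5 by 2.06 (limma adjusted p = 0.397). Gata3, the transcription factor of Th2 cells, was at 1.27% or less in every mouse. Runx3, a regulator of cytotoxic and helper T cells, fell from 66.0% to 73.5% in saline to 47.9% to 62.7% in the DSE mice, and lost its call when some single mice were left out (largest limma adjusted p = 0.103). With Runx1 it made 2 lower of 14 promoters of T cell transcription factors, and Tcf7, a factor of T cell development, was higher by 4.45 points, which was lost with centring.

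Chemokine promoters went both ways. Cxcl9, an interferon-induced attractant of T cells, fell from 68.6%, 62.6% and 61.8% to 50.4%, 50.5%, 46.2% and 45.7% (difference -16.1, limma adjusted p = 0.00485). Its OVA mice were spread from 35.9% to 61.6%. Ccl3, an attractant of monocytes, fell by 9.94 points. Cxcl1 and Cxcl5, which attract neutrophils, rose by 5.67 and 2.92 points and Cxcl10, another interferon-induced chemokine, by 3.25, and all 3 lost their call with centring. With each window weighted equally Cxcl5 went to 1.58 points and lost its call too.

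**Figure D2:**
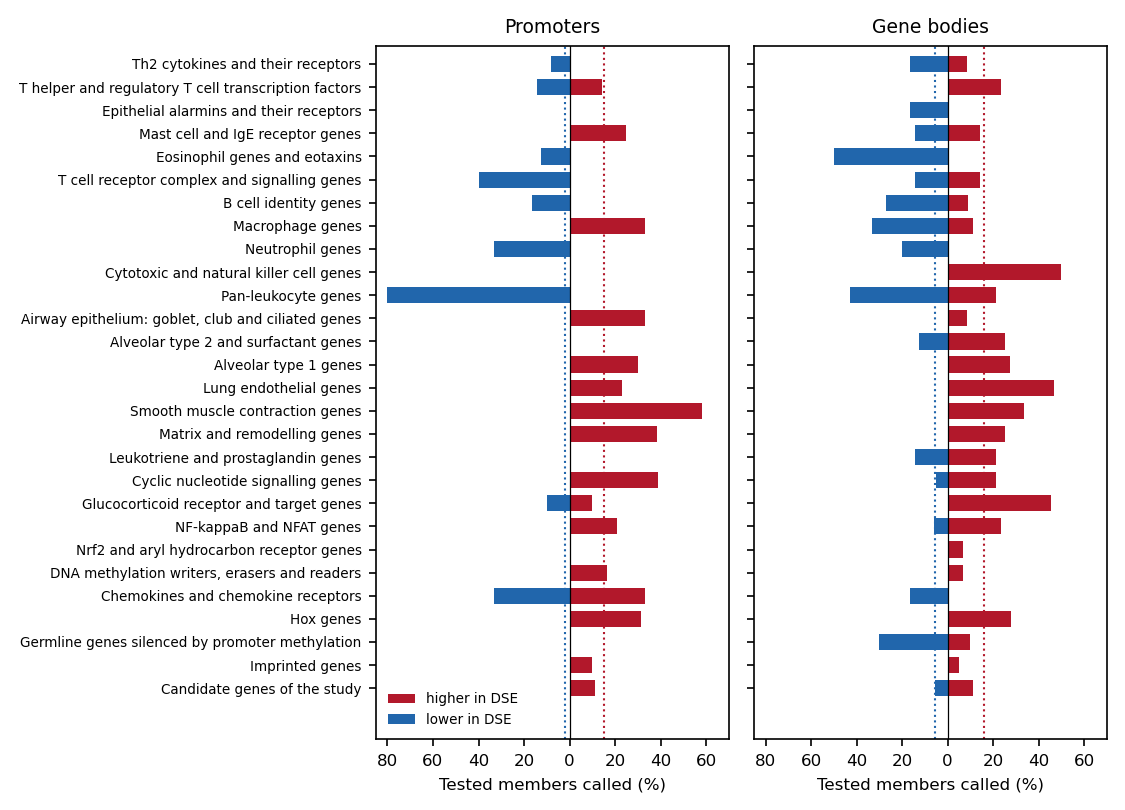
Percentage of the tested members of each gene list called higher (red, to the right) or lower (blue, to the left) in DSE vs. saline, for promoters and gene bodies, with dotted lines at the percentages over all genes. The pan-leukocyte promoters reach furthest to the left with 12 of 15 and the smooth muscle promoters furthest to the right with 7 of 12.

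Several smooth muscle promoters were higher. Of the 12 tested, 7 were higher and 0 lower, against 15.0% higher among all promoters, with a median of 4.25 points, and 4 were called with centring. Tagln, the actin-binding protein transgelin, stood at 24.9%, 26.4% and 29.6% in saline and 39.7%, 43.9%, 42.6% and 38.5% in the DSE mice (difference 14.3, 95% interval 9.78 to 18.7, limma adjusted p = 0.00389), with OVA mice at 37.2% to 42.5%. Acta2, smooth muscle actin, stood at 39.0%, 42.0% and 45.0% in saline, 49.9%, 55.5% and 51.5% in OVA, and 52.4%, 60.5%, 50.5% and 60.7% in DSE mice (difference 14.0, limma adjusted p = 0.0147). No DSE mouse overlapped with a saline mouse at either gene. Lmod1, a leiomodin of smooth muscle thin filaments, rose by 12.9 points, the tropomyosin Tpm2 by 6.74, the myosin heavy chain Myh11 by 4.26, desmin (Des) by 2.46 and the muscarinic receptor Chrm3 by 0.713. Tagln, Lmod1, Tpm2 and Myh11 kept their call with centring, whereas Acta2 did not. Des and Chrm3 lost theirs with centring and with equal weights.

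The 250 bases before the start of Acta2 (chr19:34255374-34255623, minus strand) and Tns2 (chr15:102102684-102102933, plus strand) on GRCm38.p6 are shown with CpGs in capitals beside those of Hoxa5 (chr6:52204588-52204837, minus strand), as CpG-poor and CpG-rich examples among promoters that rose.
Acta2: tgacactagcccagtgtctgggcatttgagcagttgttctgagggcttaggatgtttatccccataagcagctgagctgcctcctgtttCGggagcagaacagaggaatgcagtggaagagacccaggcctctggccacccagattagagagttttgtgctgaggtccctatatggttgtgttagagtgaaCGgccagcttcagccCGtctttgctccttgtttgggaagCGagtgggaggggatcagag
Tns2: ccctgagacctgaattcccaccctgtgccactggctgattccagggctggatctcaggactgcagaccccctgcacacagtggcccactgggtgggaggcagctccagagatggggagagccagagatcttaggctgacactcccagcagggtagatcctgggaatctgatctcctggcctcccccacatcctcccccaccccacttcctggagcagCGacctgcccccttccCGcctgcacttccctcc
Hoxa5: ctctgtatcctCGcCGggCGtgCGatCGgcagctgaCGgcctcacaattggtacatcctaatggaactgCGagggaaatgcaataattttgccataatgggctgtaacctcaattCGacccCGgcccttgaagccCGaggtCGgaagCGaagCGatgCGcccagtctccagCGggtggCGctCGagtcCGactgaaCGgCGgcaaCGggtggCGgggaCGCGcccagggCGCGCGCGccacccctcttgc

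Tns2 encodes a tensin of focal adhesions, and its promoter had one of the largest rises. It stood at 10.5%, 9.26% and 17.1% in saline, 25.0%, 36.7% and 34.1% in OVA, and 36.2%, 31.5%, 32.6% and 36.2% in DSE mice (difference 21.9, 95% interval 16.9 to 26.8, limma adjusted p = 0.00293). Ston1, a stonin of endocytosis, rose by 22.3 points and Ston2, its paralogue, from 10.1% to 10.6% in saline to 20.7% to 32.2% in the DSE mice. Gstm2, a glutathione S-transferase, rose from at most 22.6% in the saline mice to 40.5%, 39.7%, 38.7% and 45.2% (difference 19.9, limma adjusted p = 0.00284), and its OVA mice were at 31.8% to 48.0%. At all of these genes the DSE mice overlapped with the OVA mice and not with the saline mice. Tmem204, Ccdc162, Slc44a4, Insl3, AA986860, Zfp641 and the V segments Ighv1-55 and Trav6n-6 completed the largest rises. Tmem204 lost its call with each window weighted equally, and the Trav6n-6 promoter held 30 to 79 calls per mouse and differed by -2.43 points with windows shifted by 500 bp. Of 13 matrix and remodelling promoters 5 were higher, against 15.0% of all promoters, with a median of 0.591 points beside 0.611 over all. Col1a2, a chain of type I collagen, rose by 4.86 points. Eln, the gene of elastin, rose from 0.936% or less in the saline mice to 1.24% or more in the DSE mice. Lox and Mmp2 lost their call with each window weighted equally.

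Hox genes encode transcription factors that pattern the body axis, and Hoxa5 is needed for lung development in the mouse. Of 38 Hox promoters tested, 12 were higher and 0 lower, against 15.0% higher among all promoters, with a median of 0.814 points. With any 1 mouse left out 6 to 9 were called. Hoxa2, Hoxa4 and Hoxa5 kept their call with centring, and Hoxb3, Hoxc11 and Hoxd12 lost theirs with each window weighted equally. The Hoxa5 promoter stood at 30.0%, 26.2% and 28.5% in saline, 42.8%, 42.6% and 44.7% in OVA, and 43.2%, 45.1%, 42.6% and 49.2% in DSE mice (difference 16.8, 95% interval 12.1 to 21.5, limma adjusted p = 0.00299). Its gene body rose further, from 15.6%, 14.7% and 16.7% to 34.0%, 40.0%, 33.2% and 39.8% (difference 21.1, limma adjusted p = 0.00311). With each window weighted equally the Hoxa5 body differed by 20.7 points, so the weighting hardly moved it. Of 36 Hox gene bodies, 10 were higher and 0 lower, against 16.1% and 5.66% of all gene bodies. They were those of Hoxa2, Hoxa3, Hoxa4, Hoxa5, Hoxa6, Hoxa10 and Hoxa11 together with Hoxb3, Hoxd3 and Hoxd4. Hoxa11 and Hoxb3 lost their call with each window weighted equally. The Hoxa3 gene spans 44006 bp in this annotation and includes Hoxa4, Hoxa5 and Hoxa6, so these 4 genes share windows. In the Hoxa3 body 50 of 61 windows were called higher and 0 lower by the test of single windows given further on, which counts every call as independent.

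**Figure D3:**
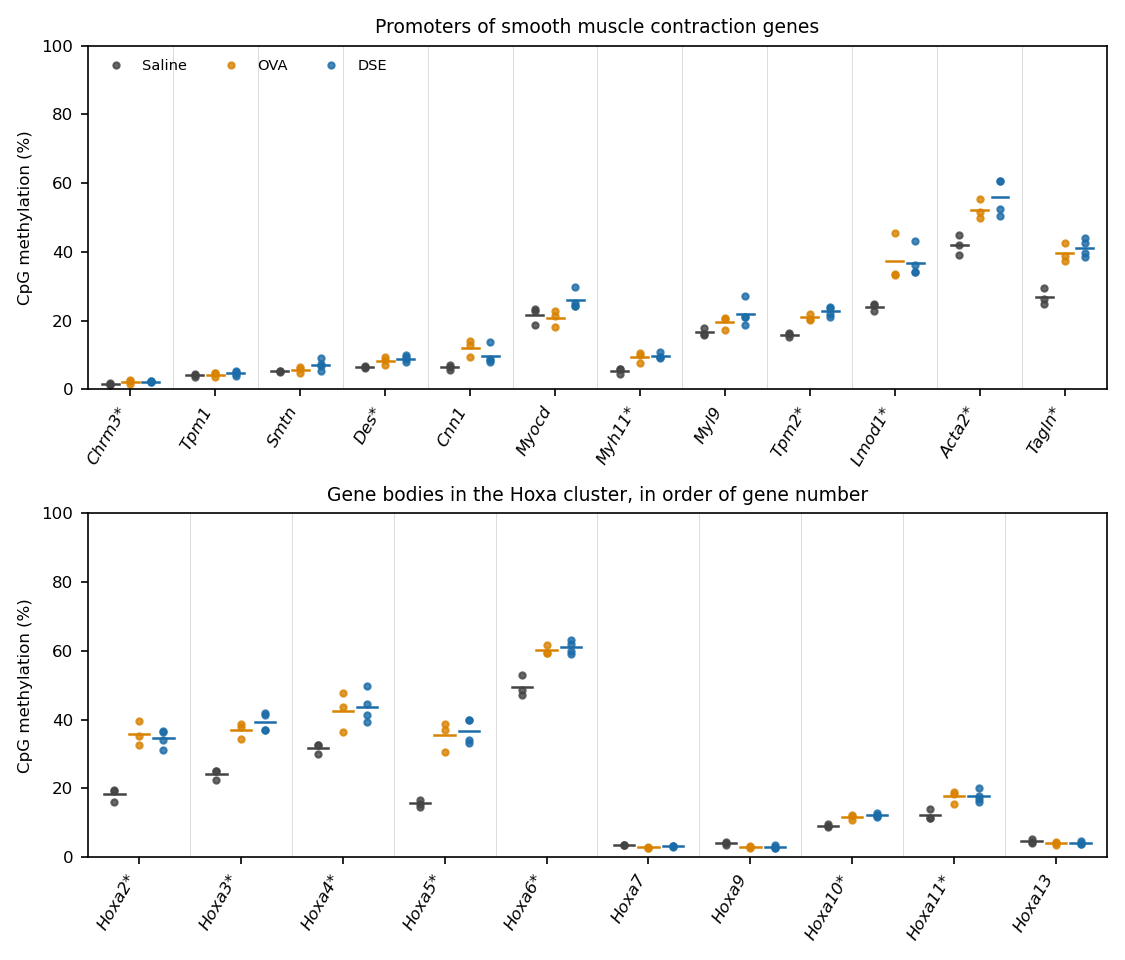
CpG methylation (%) in each mouse of the promoters of 12 smooth muscle genes (top) and of gene bodies of the Hoxa cluster (bottom), with a bar at each group's mean and an asterisk at genes called in DSE vs. saline. From Hoxa2 to Hoxa6 the DSE and OVA mice lie together above the saline mice, while Hoxa7, Hoxa9 and Hoxa13 stay near the bottom of the scale in all groups.

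Along the Hoxa5 locus the rise reached past the 2834 bp of the gene. In the window centred 586 bp downstream of the start site the saline mice had 11.1%, 11.0% and 11.2% and the DSE mice 34.1%, 36.1%, 27.7% and 36.4%. In the window centred at -914 bp they had 52.0%, 43.6% and 45.6% against 55.0%, 60.4%, 56.9% and 61.9%. The groups did not overlap in either window, and of these 2 the gap was wider downstream. All DSE mice also lay above all saline mice in every other measured window centred from -3914 to 7586 bp. At -3914 bp the saline mice had 6.23% to 6.77% and the DSE mice 12.4% to 15.9%. At 7586 bp they had 13.9% to 25.3% against 35.8% to 45.8%. At Spn the window centred 1322 bp after the start fell from 71.6%, 75.2% and 68.2% to 55.0%, 47.4%, 49.7% and 46.3%, whereas in the window centred at -1178 bp the saline mice lay at 81.0% to 91.7% and the DSE mice overlapped with them at 79.7% to 84.4%.

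**Figure D4:**
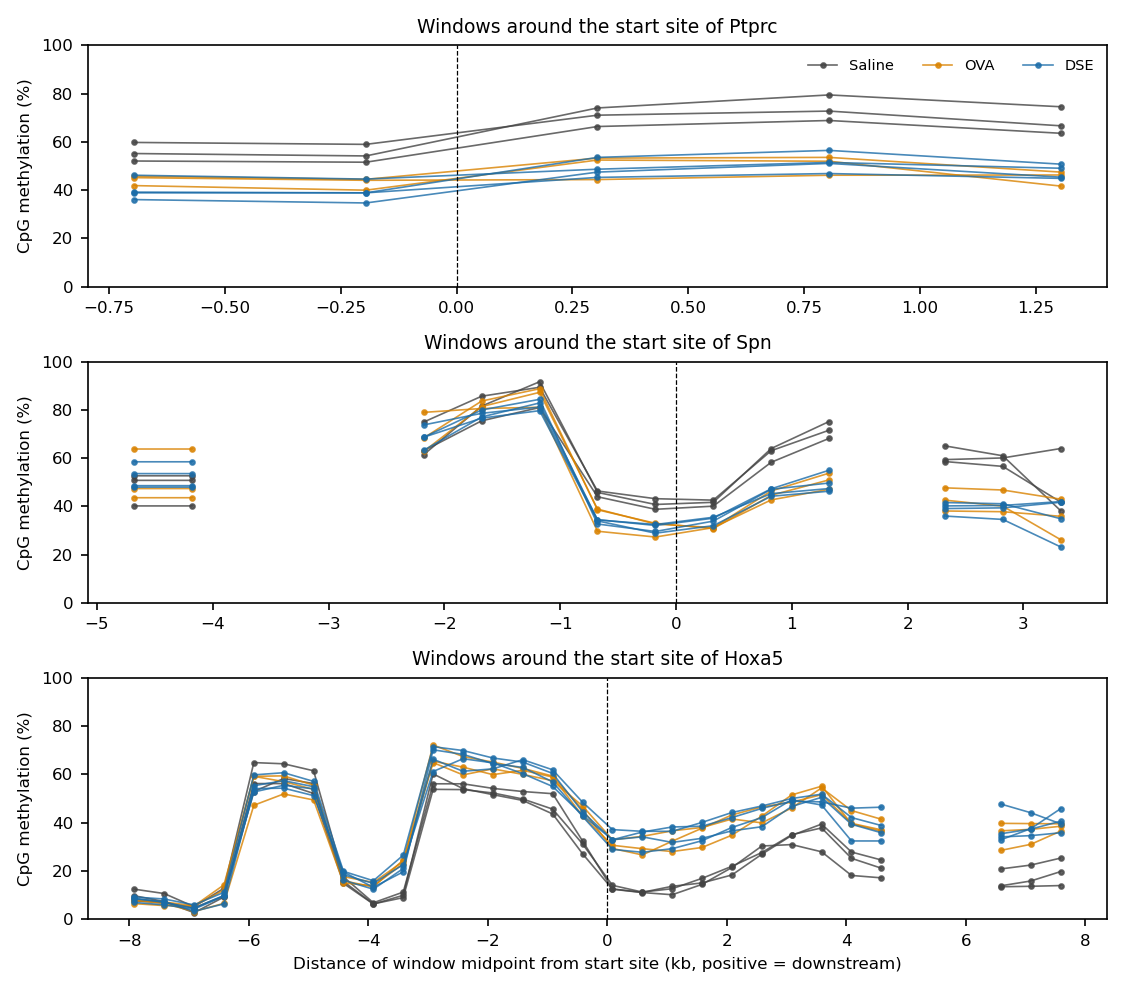
CpG methylation (%) of each window against the distance of its midpoint from the start site (kb, positive downstream) at Ptprc, Spn and Hoxa5, with 1 line per mouse and breaks where windows are missing. The DSE and OVA lines run together and without overlap below saline across Ptprc and in the Spn windows centred from -678 to 2822 bp. They run above saline in the Hoxa5 windows centred from -3914 to 7586 bp. In the Spn window at 3322 bp the groups overlap.

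Gene bodies of leukocyte genes were mixed. Of 14 pan-leukocyte bodies 6 were lower and 3 higher, against 5.66% and 16.1% of all gene bodies. With any 1 mouse left out 3 to 6 were lower and 1 to 3 higher. Spn fell from 66.2%, 67.1% and 61.5% to 46.3%, 43.8%, 43.7% and 39.5% (difference -21.6, 95% interval -26.3 to -16.9, limma adjusted p = 0.00360). Dock2, whose promoter fell, had a body that rose by 4.61 points, and this call was lost with each window weighted equally, as were those of Cd37, Ptprc and Lcp1. The Runx1 body rose by 4.91 points in the summed calls but differed by -0.762 with equal weights. Itgax, the integrin CD11c of dendritic cells and alveolar macrophages, fell from 60.7%, 63.5% and 56.0% to 42.6%, 40.6%, 40.9% and 39.7% (difference -19.1, limma adjusted p = 0.00365). Of 9 macrophage bodies tested, 3 were lower and 1 higher, with a median of -1.17 points. Cx3cr1, among the lower, and Pparg, the higher one, lost their call with equal weights. Of 6 cytotoxic and natural killer cell bodies 3 were higher (Eomes, Klrg1 and Cd160) and 0 lower, with a median of 7.11 points. All 3 lost their call with equal weights. Ikzf1, the lymphoid factor Ikaros, had 21 of 55 windows called lower in its body by the test of single windows. Epx, eosinophil peroxidase, fell by 6.94 points in a list of 4 tested eosinophil bodies of which 2 were lower, beside 5.66% of all bodies. The other was Il5ra, the interleukin 5 receptor alpha chain, described below with the genes whose OVA mice did not pass the test against saline.

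Of 15 endothelial gene bodies 7 were higher, against 16.1% of all gene bodies, with a median of 3.97 points beside 1.34 for all. With any 1 mouse left out 2 to 8 were called. Tek, the angiopoietin receptor, stood at 42.8%, 40.5% and 39.0% in saline, 49.0%, 56.4% and 56.1% in OVA, and 54.3%, 52.2%, 51.7% and 56.8% in DSE mice (difference 13.0, 95% interval 9.23 to 16.7, limma adjusted p = 0.00520). Kdr, Vwf, Tmem100 and Plvap lost their call with each window weighted equally, whereas Tek, Eng and Sox18 kept it. Emp2, a membrane protein of alveolar type 1 cells, rose in its body from 42.5%, 37.0% and 44.4% to 53.3% to 68.8%. Of 11 tested bodies in its list 3 were higher and 0 lower. Of 8 alveolar type 2 bodies 2 were higher, Abca3 and Nkx2-1, and 1 lower, beside 16.1% and 5.66% of all gene bodies. The lower one was Sftpb, surfactant protein B, at -10.1 points, and the list's median was 1.33 points. Abca3 lost its call with each window weighted equally. The airway mucin Muc5ac did not pass the test in its gene body (limma adjusted p = 0.478). Dusp1, a phosphatase induced by glucocorticoids, rose from 15.6%, 14.6% and 18.3% to 23.1%, 32.0%, 33.3% and 30.5% (difference 13.5, limma adjusted p = 0.00872). In its list 5 of 11 gene bodies were higher (3 to 5 with any 1 mouse left out) and 0 lower, against 16.1% and 5.66% of all gene bodies. Dusp1 alone kept its call with equal weights.

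Several of the largest values in gene bodies depended on how windows were summed. Ncapd3, a condensin subunit, stood at 22.0%, 26.9% and 29.7% in saline and 63.6%, 62.6%, 50.6% and 57.0% in the DSE mice, but its difference of 32.2 points went to 6.85 with each window weighted equally and the call was lost. The DSE libraries had placed 2.09 times as large a share of their calls in this body as the saline libraries. At Atp6v1d, a subunit of the vacuolar proton pump, a difference of 30.3 points went to 2.40, and at Osgep, a tRNA-modifying enzyme, -21.6 went to -0.216. Vps45, a regulator of vesicle fusion, went from -20.8 to -4.45, with 895 to 31974 calls per mouse and a call share 9.25 times as large in the DSE libraries, and to 12.6 with the start of the gene record. Ddx49, an RNA helicase, kept a difference of 16.5 points of 20.5 and lost its call. The part of call placement in these values was not tested beyond this weighting. Among the 483 gene bodies higher by at least 10 points 345 kept their call with equal weights, and among the 302 lower ones 232 did.

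**Figure D5:**
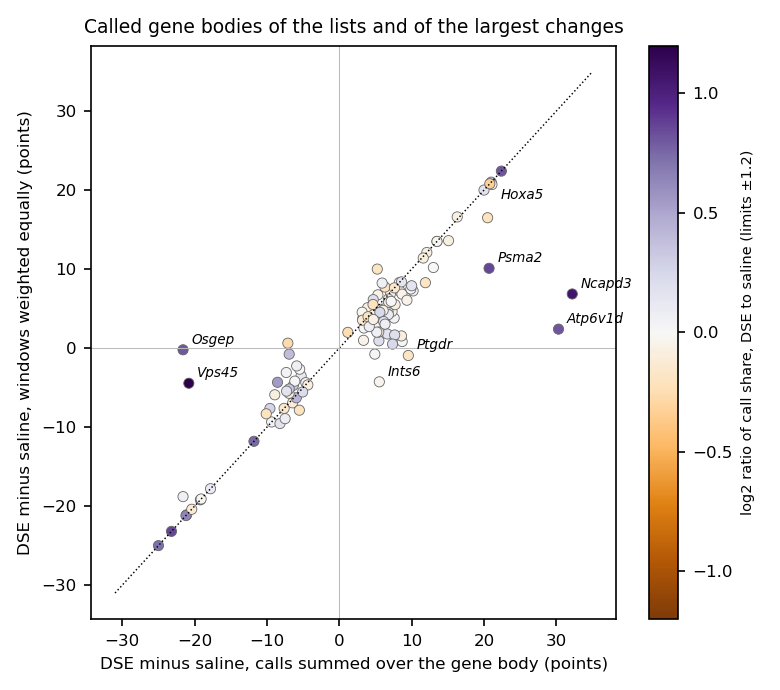
Difference in CpG methylation (DSE minus saline, percentage points) of the called gene bodies that are list members or among the largest changes, with calls summed over the body on the horizontal axis and each window weighted equally on the vertical axis, coloured by the log2 ratio of the share of calls in the DSE to that in the saline libraries. Most points lie near the dotted line of equality, and Ncapd3, Atp6v1d, Osgep and Vps45 fall toward 0 on the vertical axis.

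Some of the named genes lay away from saline in the DSE mice while the OVA mice did not pass the test against saline. They were picked for this pattern, so their values are a description. Not passing in OVA vs. saline does not by itself set them apart, since only 2.11% of all promoters were called there. Among genes named above, the promoters of Acta2, Acap1 and Cxcl9 did not pass it either (limma adjusted p = 0.0769, 0.0722 and 0.303). Rcan1, an inhibitor of calcineurin, had a promoter at 7.05%, 5.84% and 7.02% in saline, 5.04%, 8.25% and 6.49% in OVA, and 13.0%, 12.9%, 12.1% and 10.8% in DSE mice (difference from saline 5.56). Tet1, an enzyme that oxidizes methylcytosine, had 6.37% to 8.12% in saline, 6.06% to 7.70% in OVA and 10.1% to 12.8% in DSE mice. At both promoters the DSE mice lay above all of the others. Akap5, an anchor of protein kinase A, was at 17.3% to 19.6%, 16.3% to 20.5% and 23.4% to 28.3% in the same order. The Zfp641 promoter, of a zinc finger protein, had 31.8% to 36.9% in saline, 29.0% to 43.4% in OVA and 50.8% to 58.9% in DSE mice. With each window weighted equally the Zfp641 difference went from 19.2 to 8.69 points and kept its call, whereas Mbd2, a methyl-CpG binding protein, went from 8.39 to 2.81 and lost it.

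Among gene bodies with that pattern, Il5ra had 88.7%, 90.2% and 81.8% in saline, 78.6%, 82.5% and 88.9% in OVA, and 73.5%, 65.7%, 69.0% and 68.3% in DSE mice (difference -17.8), on 41 to 71 calls per mouse. Bivm was at 16.1% to 28.8% in saline, 18.6% to 21.6% in OVA and 39.3% to 46.2% in DSE mice. Asz1, a germline gene silenced in somatic cells, was at 56.4% to 69.4%, 61.4% to 74.2% and 32.8% to 50.6% in the same order. These 3 bodies held 1 tested window each, so the weighting of windows could not act on them, and the share of calls in the DSE libraries was 1.08, 1.30 and 1.76 times that in saline. Psma2, a proteasome subunit, rose from 27.3% to 30.4% in saline to 47.1% to 52.8% in the DSE mice, and its difference of 20.7 points went to 10.1 with equal weights, still called. Nr3c1, the glucocorticoid receptor, rose by 7.65 points in its body, which went to 1.66 with equal weights and lost its call, while its promoter fell by 7.78. The calls of the Asz1 body and the Nr3c1 promoter were lost when some single mice were left out (largest limma adjusted p = 0.0762 and 0.0810).

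Signalling lists of interest in airway disease moved little in points. Of 18 cyclic nucleotide promoters 7 were higher and 0 lower, against 15.0% higher among all promoters, with a median of 1.39 points, and none kept its call with centring. With any 1 mouse left out 1 to 4 were called, and Adcy3 and Adcy9, which make cyclic AMP, lost their call with each window weighted equally. Pde4b, a phosphodiesterase that breaks down cyclic AMP, stood at 27.1%, 29.5% and 27.8% in saline and 34.4%, 41.0%, 39.3% and 43.1% in the DSE mice, with OVA at 38.4% to 40.5% (difference 11.3, limma adjusted p = 0.00891). Of 19 NF-kappaB and NFAT promoters 4 were higher, among them Nfatc4, a calcineurin-dependent transcription factor, at 7.90%, 7.11% and 6.23% in saline and 14.7%, 13.8%, 16.0% and 14.9% in DSE mice (difference 7.75, limma adjusted p = 0.00284). Nfatc4, Nfatc2 and Rcan1 kept their call with centring. In the list of DNA methylation writers, erasers and readers 2 of 12 promoters were higher, Tet1 and Mbd2, and among imprinted genes 2 of 20, Ndn at 5.63 points and Zim1 at 4.95. In the epithelial and endothelial lists 2 of 6 airway promoters (Ccdc39 and Sox2), 3 of 10 alveolar type 1 promoters (Akap5, Emp2 and Gprc5a) and 3 of 13 endothelial promoters (Tek, Cldn5 and Sox18) were higher, and of these Akap5 kept its call with centring. The higher counts of these 6 lists, from 2 of 20 to 2 of 6, stand beside 15.0% of all promoters and are too small to set any list apart. Nfatc3, the remaining NF-kappaB and NFAT promoter called, and Zim1, Sox2, Emp2 and Tek lost their call with each window weighted equally. No promoter was called in the lists of leukotriene and prostaglandin genes (13 tested), Nrf2 and aryl hydrocarbon receptor genes (13 tested), alveolar type 2 genes (8 tested) and germline genes (14 tested). At an unadjusted limma p below 0.05 these lists held 3, 1, 2 and 4 promoters, and the likelihood ratio test on the calls called 0 in each. With centring 3 leukotriene and prostaglandin promoters and 1 of the Nrf2 list were called lower, and with equal weights 1 of the former. Among 4 alarmin and 3 cytotoxic cell promoters limma and that test also called 0, with 1 in each at an unadjusted p below 0.05.

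The promoters of the 18 candidate genes of the study mostly differed little from saline, with 2 higher and 0 lower. Since the study chose these genes on these mice, their count is no independent evidence. The study chose them on single windows, and those of Acsl4, Dlg3, Errfi1 and Clec4d lay outside the promoters measured here. The promoter values below are therefore not those of the study's windows at these genes. Errfi1, a feedback inhibitor of the EGF receptor, rose from 49.6%, 44.2% and 46.5% to 52.7%, 53.1%, 57.7% and 55.6% (difference 7.98, limma adjusted p = 0.0340), with OVA mice at 44.4% to 53.2%, and lost its call with centring, with equal weights and when some single mice were left out (largest limma adjusted p = 0.119). Ndel1, a regulator of dynein, rose by 1.77 points and lost its call with centring. Clec4d, a C-type lectin of myeloid cells, differed by -11.8 points (95% interval -19.9 to -3.72) and did not pass the test (limma adjusted p = 0.0506). It was called lower with centring (limma adjusted p = 0.0395) and by the likelihood ratio test, and over the alternatives its limma adjusted p ran from 0.0288 to 0.119. It held 87 to 324 calls per mouse, the share of calls there was 2.70 times as large in the DSE libraries, and the part of this was not tested. Vegfa, a growth factor of blood vessels, was at 1.14% or less in every saline and DSE mouse. The homeodomain protein Hopx had 16.8%, 17.5% and 20.5% in saline, 24.4%, 29.8% and 28.6% in OVA, and 22.3%, 22.2%, 20.7% and 24.7% in DSE mice, whose difference of 4.17 points from saline did not pass (limma adjusted p = 0.0680). Of their gene bodies Errfi1 and Ints6 were higher and Pcmtd1 lower, and all 3 lost their call with each window weighted equally. Ints6 then went from 5.53 to -4.27 points, and Pcmtd1 went from -6.93 to 1.58 with the start of the gene record.

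At the level of single windows, 428605 were tested by a likelihood ratio test on the calls, with a Benjamini-Hochberg adjusted p below 0.01 and a difference of at least 10 points. In the DSE mice 21414 windows were higher (5.0%) and 13277 lower (3.10%), against 24.1% of all windows whose mice did not overlap. This test counts every call as independent, and limma on the same windows gave an adjusted p below 0.05 for 12890 and 8922 of them. An F test with a scale factor, which allows for spread between mice, called 0 higher and 0 lower, with 89555 windows at an unadjusted p below 0.05. The window counts given for Hoxa3, Ikzf1 and other genes rest on the likelihood ratio test. Called windows were least frequent within 1000 bp after a start site, where 1.74% were higher and 0.971% lower. Higher windows were most frequent over 50 kb after a start site, at 5.91%, and lower ones 2 to 5 kb before one, at 4.07%. The gene bodies with the most higher windows after Hoxa3 were those of the cytoskeletal linker Macf1 (25 of 115), Aopep, Casz1, Sh3pxd2a and Clybl. For lower windows they were Sgms1 (23 of 136), Ikzf1, Med12l, the Ras regulator neurofibromin (Nf1), Tg and Dapp1.

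The promoters called with a difference of at least 10 points were described by their CpG content and starting level, and that minimum itself favours promoters of intermediate level. Their CpG observed to expected ratio had a median of 0.276 where methylation was higher and 0.202 where it was lower, beside 0.537 over all tested promoters. A saline level between 20% and 80% was held by 77.6% of the higher and 92.9% of the lower promoters, against 26.7% of all, and a change of 10 points is possible in both directions only away from the ends of the scale. Protein-coding genes made up 47.0% and 54.0% of them, against 69.6% of all. Without the minimum the promoters called higher had a median CpG ratio of 0.568, and 74.1% were of protein-coding genes. Those called lower had a median ratio of 0.225.

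A purine-rich motif, GAGGAAGT, which holds the core bound by the blood cell factor PU.1, was searched on both strands from 250 bases before to 50 after the start site. It was found in 35 of the 175 lower promoters with a RefSeq sequence, in 7 of 270 higher ones (2.6%), in 483 of 16585 tested promoters (2.9%) and in 215 of 5006 whose CpG ratio was under 0.4 (4.3%). The CArG box of smooth muscle genes was counted only as CC, 6 bases of A or T, and GG, so variants with another base were missed. It was found in none of the 175 lower and 6 of 270 higher promoters (2.2%). The share was 1.4% of all and 1.7% of those with a CpG ratio under 0.4. In the smooth muscle list 1 of 9 promoters with a sequence held it, that of Myl9, which was not called. Both are matches of letters and not binding sites. Vav1, a signalling factor of blood cells whose promoter fell from 48.0%, 47.4% and 49.8% to 36.3%, 36.6%, 36.9% and 36.0%, is printed with the motif in capitals over the 250 bases before its start (chr17:57278850-57279099, plus strand, GRCm38.p6), where it lies next to the start site.
Vav1: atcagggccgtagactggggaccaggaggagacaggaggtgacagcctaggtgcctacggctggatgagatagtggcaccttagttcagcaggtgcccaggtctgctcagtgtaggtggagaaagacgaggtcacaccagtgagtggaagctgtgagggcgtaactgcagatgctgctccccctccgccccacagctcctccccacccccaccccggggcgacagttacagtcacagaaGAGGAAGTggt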

How the data were processed

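Lung DNA of 10 mice had been captured with the SureSelect Methyl-seq kit, converted with bisulfite and sequenced, and the 3 saline and 4 DSE mice were compared. The deposited values are counts that the authors made by trimming, mapping to mm10 and summing CpG calls with methylKit over 446336 windows. The submitters' processing notes name cutadapt 1.10, Bismark 0.19.0 and methylKit 1.0.0, while the study's methods give other versions. Counts were not normalized, and the smallest in any library was 10 calls per window. Calls can come from the same molecule, so depth covers counting error only. The limma p-values set the group difference against the spread between these mice, and those of the likelihood ratio test leave that spread out.

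Percentages were computed from calls in windows where each of the 7 mice had 20 calls or more (428605 outside chromosome Y and the mitochondrion). Genes came from RefSeq on GRCm38.p6, and sequences are those of RefSeq. Tests used limma 3.58.1 in R 4.3.3 with a variance trend, on the 7 mice only, with numpy 2.4.6, pandas 2.3.3 and scipy 1.17.1. Gene sums used every second window, so that no 2 windows overlapped. Single windows were tested with logistic regression on calls, by likelihood ratio. Both tests were tried on simulated data with known changes, limma with spread between mice and the likelihood ratio test without it. The latter trial therefore cannot show how that test behaves under spread between mice. DSE vs. OVA and OVA vs. saline were fitted in the same way on their own mice. Replicates differed by more than sampling noise.

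Named were, among called genes whose saline and DSE mice did not overlap, the 12 promoters and 8 gene bodies with the largest rise and fall, every called list member, the candidate genes, and the 6 genes with the most called windows. Symbols of unnamed loci and small RNAs were counted only, with Mir142 as an exception. The members and lists were chosen with earlier results of these data known. Of 462 list genes 461 matched, and some called members are not reported here. The alternatives were other thresholds, pseudocounts, promoter widths, minimum calls, starts, tests, a replicate block, centring and leaving out each mouse. Equal weighting of windows was chosen after seeing the data.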

Additional observations from a re-analysis of the deposited data

Results flagged for a closer look

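In 7 of the 249 groups of 4 DSE mice behind the genes named, 1 mouse stood apart from the other 3 (its gap to the nearest, over the whole range, passed Dixon's critical value at 95%). Chance flags about 1 in 20 groups. DSE 1 had 9.41% at the Cxcl5 promoter (the others 11.4% to 11.7%), 33.7% in the Pa2g4 body (39.7% to 40.2%), 35.9% in the Clic5 body (37.3% to 37.6%), 75.5% in the Tdrd1 body (74.8% in all others) and 60.2% in the Kit body (61.1% in all others). DSE 3 had 6.52% at the Gtf2e2 promoter (8.27% to 8.42%) and 48.6% at the Mir142 promoter (45.8% to 46.3%).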

How the results depend on the processing

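Pseudocounts of 0.5 and 5, limma on percentages, no variance trend, all 10 mice in 1 fit, a minimum of 50 calls or none, shifted windows, the start of the gene record and autosomes alone left the promoter and gene-body counts within 1.5 times. Promoter counts (3378 higher and 464 lower) became 883 and 166 at an adjusted p under 0.01, 402 and 252 at a difference of 10 points or more, 972 and 878 with centring, 709 and 819 with centring and equal weights, 1017 and 226 within 500 bp of the start, 6057 and 749 within 2000 bp, and 442 and 273 by a likelihood ratio test on the calls with a minimum difference of 10 points. The 402 became 227 with centring. Gene-body counts (3518 and 1236) became 668 and 350 at an adjusted p under 0.01, 483 and 302 at 10 points, 1743 and 1914 with centring, 1768 and 820 with equal weights, and 537 and 342 by the likelihood ratio test. With centring and equal weights 997 were higher. The 483 became 303 with equal weights. Window counts (21414 and 13277) became 1229 and 967 at 20 points, 10681 and 6594 in non-overlapping windows, and 0 and 0 by an F test with a scale factor (89555 at an unadjusted p under 0.05). Limma on windows called 13160 higher, with 108838 at an unadjusted p under 0.05. Mean differences over promoters, gene bodies and windows, 1.16 and 1.32 points in the first 2, were 1.46, 2.33 and 2.71 from pooled calls. The cause was not tested for any of these beyond what each setting changes.

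With 1 mouse left out, promoters called higher ranged from 1632 to 2873 and lower from 273 to 415, those past 10 points from 295 to 456 and 198 to 264. Gene bodies ranged from 1482 to 3438 and 739 to 1035, past 10 points from 368 to 584 and 262 to 340. Windows ranged from 19456 to 25474 and 12208 to 14958. Mean differences ranged from 1.05 to 1.26, 1.14 to 1.56 and 0.931 to 1.32. Higher promoters were fewer by over 1.5 times without Saline 1 (2191), Saline 2 (1632), Saline 3 (2238), DSE 2 (1916) or DSE 3 (2179), and lower ones to 309 without Saline 1 and 273 without Saline 2. Higher gene bodies were 2081, 1482 and 2196 without Saline 1, 2 and 3, and 1849, 2210 and 2216 without DSE 2, 3 and 4. Lower ones were 749 and 739 without Saline 1 and 2.

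The replicate numbers did not pair the mice. The deviations of same-numbered mice correlated at 0.004, -0.0312 and -0.0339. With the replicate number as a block 1598 promoters were higher and 213 lower, and no gene body was called (0 and 0, limma, with 6301 at an unadjusted p under 0.05).

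Directions reversed in few named genes. With the start of the gene record the differences were 4.06 at the Spn promoter, -20 at the Hoxb3 promoter, and 12.6, 1.58 and 4.14 in the bodies of Vps45, Pcmtd1 and Kat6a. With shifted windows they were -2.43 at the Trav6n-6 promoter, -1.39 in the Dazl body and 5.43 in the Relch body, and with at least 50 calls 1.12 in the Cpa3 body. With equal weights they were -0.762 in Runx1, 0.623 in Cx3cr1, -0.935 in Ptgdr and -4.27 in Ints6 bodies, and with centring as well 0.923 in Pparg, 0.829 in Cd160, 0.984 in Prkg1 and 0.507 in Ppp3cb. Of the 102 called promoters among list members and largest changes, 43 lost their call with centring, 24 with equal weights and 58 by the likelihood ratio test.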
